A study of Mus musculus with 6 samples.

Results

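The genes described here are 10 members of the BCL2 family, the proteins that decide whether the outer mitochondrial membrane stays intact or is opened to start apoptosis. They were chosen by symbol (Bmf, Bcl2l11, Bbc3, Bad, Bid, Bik, Pmaip1, Mcl1, Bcl2l1 and Bok) from 19938 genes measured on Affymetrix arrays, each represented by its brightest probe set with exactly 1 gene symbol, and all 10 were found, with 1 probe set each. The samples were 4T1 cells, an established mouse mammary carcinoma line. The DMSO group was 3 dishes given the vehicle for 16 h, and the TKI258 group was 3 dishes given 500 nM TKI258 for 16 h in the same serum-containing medium. TKI258, or dovitinib, blocks the tyrosine kinase activity of FGF, VEGF and PDGF receptors. The design sets the inhibitor against its vehicle in 1 line, at 1 dose and 1 time.

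In this family the BH3-only proteins are the death signals, the survival proteins hold them in check, and the BAX-type effectors make the pores. A BH3-only protein carries a short helix, the BH3 domain, that fits into a groove of survival proteins such as BCL-XL and MCL1. Growth factor signalling through ERK and AKT is known to restrain several BH3-only proteins, some by lowering their transcription and some by phosphorylation or turnover of the protein, and only mRNA was measured here. By role the 10 genes are 7 BH3-only genes (Bmf, Bcl2l11, which encodes BIM, Bbc3, which encodes PUMA, Bad, Bid, Bik and Pmaip1, which encodes NOXA), 2 survival genes (Mcl1 and Bcl2l1, which encodes BCL-XL) and Bok, a BAX-like effector that is neither.

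After TKI258, 3 BH3-only genes were higher (Bmf by 1.54, Bid by 0.41 and Bcl2l11 by 0.26 on the log2 scale), the survival gene Bcl2l1 was lower by 0.28 (log2 change -0.28) and the effector gene Bok was lower (log2 change -0.44). The other 5, Bbc3, Bad, Bik, Pmaip1 and Mcl1, did not pass the test. A gene passed when its limma p-value was below 0.05 after Benjamini-Hochberg adjustment across the 19938 genes. Thus 5 of 10 genes passed, where 27% of all genes did, with 3 higher against 14.4% of all genes and 2 lower against 12.6%. These genes, and the lists further on, were chosen with earlier results of these data known. Their shares are therefore description and not a test of enrichment. The median log2 change of the 10 genes was 0.08, against 0.01 over all genes. In such bulk samples a change in the RNA of each cell and a change in the make-up of the culture cannot be told apart.

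The promoters of the genes with the largest rise and the largest fall are shown first, as the sequence upstream of the members that moved most in each direction. Which annotated start these cells use was not measured. Each is the 250 bases before the most upstream RefSeq start (build GRCm38.p6), written 5′ to 3′ on the gene's strand, and neither window overlaps another annotated gene. Capitals mark a GC box, which in Bok lies on the opposite strand and appears as its reverse complement. Bmf lies on the minus strand with its window at chr2:118549687-118549936, and Bok on the plus strand with its window at chr1:93685325-93685574.
Bmf: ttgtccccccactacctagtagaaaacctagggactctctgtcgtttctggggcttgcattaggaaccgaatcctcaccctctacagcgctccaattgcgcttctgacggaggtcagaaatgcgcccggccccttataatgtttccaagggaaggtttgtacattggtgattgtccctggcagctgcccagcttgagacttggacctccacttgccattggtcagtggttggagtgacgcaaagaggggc
Bok: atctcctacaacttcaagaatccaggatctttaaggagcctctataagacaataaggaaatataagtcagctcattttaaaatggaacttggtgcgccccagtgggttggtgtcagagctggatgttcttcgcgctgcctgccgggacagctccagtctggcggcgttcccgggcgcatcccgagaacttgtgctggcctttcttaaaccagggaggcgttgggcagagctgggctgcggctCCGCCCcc

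Both strands of these windows were searched for GTAAACA (the FOXO core), CACGTG (E-box), GGGCGG (GC box), TGACGTCA (cAMP response element), TTTCGCGC (E2F) and, by name, the p53 pair of half-sites. The promoter windows used covered 8 of the 10 genes, with 16 windows in all. Bik and Pmaip1 had no window and were not searched. Bmf held none of these motifs in any of its 3 windows, and Bok held 1 GC box. With the 50 bases after the start included, Bmf also held a GC box. The FOXO core was present in 2 of the 16 windows, 1 of Bcl2l11 and 1 of Bbc3, and in 3.17% of all 32851 windows. It began 227 bases before the upstream start of Bcl2l11 (chr2:128125801-128125827, plus strand) and 167 bases before an internal start of Bbc3 (chr7:16310084-16310110, plus strand), shown with 10 bases on each side and the core in capitals. The Bbc3 match lies on the opposite strand and so appears as its reverse complement. The Bcl2l11 window with the match overlaps another annotated gene, Acoxl.
Bcl2l11: agacactaggGTAAACAcgccggggtg
Bbc3: ctggcgggttTGTTTACaaacaatggg
Both genes are textbook targets of FOXO factors. Among the remaining motifs, the GC box was in 9 of 16 windows and 32.7% of all windows, the E-box in 1 (Bbc3) and 6.02%, and the E2F motif in 1 (Bcl2l1) and 0.256%. The cAMP response element and the p53 pair were in 0 of the 16 windows, against 1.55% and 0.0639% of all windows. GC content of the 16 windows ran from 47.6% to 81.6% with a median of 63.2%, against a median of 52.4% over all windows. A match is a string of letters in a short window and does not show that a factor binds there.

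Bmf encodes a BH3-only protein that is held on the cytoskeleton by a dynein light chain and is freed by detachment stress. Its log2 signal was 5.79, 5.76 and 5.49 in DMSO replicates 1 to 3 and 7.10, 7.30 and 7.26 in TKI258 replicates 1 to 3. The groups did not overlap, and the gap between them was several times the spread within either. The means were 5.68 ± 0.17 (SD, n = 3) and 7.22 ± 0.11 (SD, n = 3), a log2 change of 1.54 (SE 0.10, 95% confidence interval 1.32 to 1.76, limma adjusted p = 7.41e-06). This is 2.91 times the DMSO signal, and by size of change Bmf was number 119 of the 19938 genes. No other member changed as much: the interval of the next largest rise, that of Bid, ended at 0.62.

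Bid encodes the BH3-only protein that is cleaved by caspase-8 and so carries death receptor signals to mitochondria. Its log2 signal was 8.34, 8.23 and 8.39 with DMSO and 8.90, 8.57 and 8.71 with TKI258. All 3 treated dishes lay above all 3 controls, although TKI258 replicate 2 lay closer to the controls than to replicate 1. The means were 8.32 ± 0.08 (SD, n = 3) and 8.73 ± 0.17 (SD, n = 3), a log2 change of 0.41 (SE 0.09, 95% confidence interval 0.20 to 0.62, limma adjusted p = 0.00937).

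Bcl2l11 encodes BIM, which binds all survival proteins of the family and whose protein is marked for degradation by ERK phosphorylation. Its log2 signal was 9.11, 9.09 and 9.02 with DMSO and 9.37, 9.29 and 9.32 with TKI258. The groups did not overlap, but the change was small: a log2 change of 0.26 (SE 0.06, 95% confidence interval 0.12 to 0.40, limma adjusted p = 0.0129), or 1.2 times the DMSO signal. The call was lost without DMSO replicate 3, at a log2 change of 0.23 and a limma adjusted p of 0.0555. The probe set gives 1 value for the gene, so the extra-long, long and short splice forms of BIM are not separated.

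The other 4 BH3-only genes did not pass. Bbc3, whose product PUMA is best known as a p53 target, read 5.31, 5.12 and 5.13 with DMSO and 5.66, 5.27 and 5.28 with TKI258. One treated dish stood above the rest and the other 2 fell within the range of the controls. Its log2 change was 0.22 (95% confidence interval -0.04 to 0.47, limma adjusted p = 0.205), and 0.09 without TKI258 replicate 1. Bad, whose product is held inactive by AKT and ERK pathway phosphorylation, read 6.76, 6.66 and 6.79 with DMSO and 6.88, 6.56 and 7.01 with TKI258. Treated dishes lay on both sides of the controls, with a log2 change of 0.08 (95% confidence interval -0.17 to 0.33, limma adjusted p = 0.677).

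Bik, a BH3-only gene whose product sits at the endoplasmic reticulum, read 5.63, 5.60 and 5.51 with DMSO and 5.83, 5.43 and 5.60 with TKI258, again spread around the controls. Its log2 change was 0.04 (95% confidence interval -0.19 to 0.27, limma adjusted p = 0.842). Pmaip1, which encodes NOXA, the BH3-only partner of MCL1, was dim, at 4.21, 4.59 and 4.30 with DMSO and 4.32, 4.62 and 4.41 with TKI258. These values lie under 5.01, the median signal on the arrays. The log2 change was 0.08 (95% confidence interval -0.17 to 0.34, limma adjusted p = 0.67). For each of these 4 genes the interval leaves room for a rise as large as that of Bcl2l11, and for none does it reach the rise of Bmf.

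**Figure D1:**
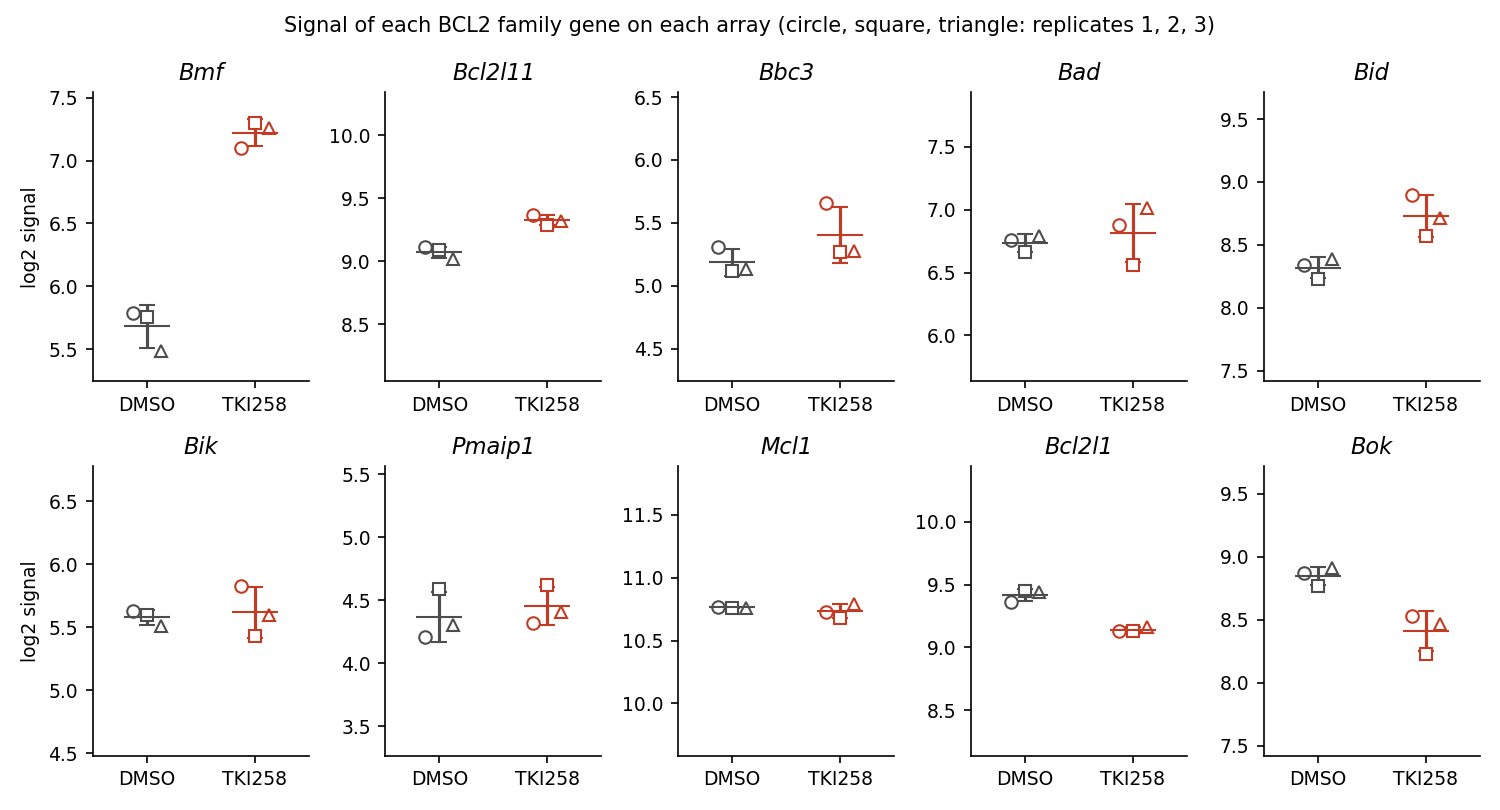
Log2 signal (vertical axis, the same span in every panel) of each of the 10 genes on each array, DMSO in grey and TKI258 in red, with the mean as a line and the SD as bars (n = 3). Bmf moves from a mean of 5.68 to 7.22, Bid and Bcl2l11 rise without overlap, Bcl2l1 and Bok fall without overlap, and the other 5 overlap.

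Of the survival genes, Bcl2l1 passed and Mcl1 did not. Mcl1 encodes a short-lived survival protein and is one of the brighter genes on the array. It read 10.77, 10.76 and 10.76 with DMSO and 10.73, 10.68 and 10.79 with TKI258, so that the treated dishes straddled nearly identical controls. The log2 change was -0.03 (SE 0.06, 95% confidence interval -0.17 to 0.11, limma adjusted p = 0.792). Bcl2l1, which encodes BCL-XL and, by splicing, the shorter BCL-XS, read 9.36, 9.45 and 9.44 with DMSO and 9.13, 9.13 and 9.16 with TKI258. Every treated dish lay below every control, and the 3 treated dishes were close together. The means were 9.42 ± 0.05 (SD, n = 3) and 9.14 ± 0.02 (SD, n = 3), a log2 change of -0.28 (SE 0.06, 95% confidence interval -0.41 to -0.14, limma adjusted p = 0.00824), which leaves 0.826 of the DMSO signal. The intervals of the changes overlapped slightly, since that of Mcl1 reached down to -0.17 and that of Bcl2l1 up to -0.14, and the difference between both changes was not tested. The splice forms of Bcl2l1 are not separated by its 1 probe set.

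Bok encodes a BAX-like effector whose protein is kept low by proteasomal turnover. Its log2 signal was 8.87, 8.77 and 8.91 with DMSO and 8.53, 8.23 and 8.47 with TKI258. The groups did not overlap, with the lowest value in TKI258 replicate 2. The means were 8.85 ± 0.07 (SD, n = 3) and 8.41 ± 0.16 (SD, n = 3), a log2 change of -0.44 (SE 0.09, 95% confidence interval -0.64 to -0.24, limma adjusted p = 0.00529). Bok was thus lower while the BH3-only genes that passed were higher, and of the 2 genes that fell 1 encodes a survival protein and 1 an effector.

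Over the 10 genes, the 5 that passed were also those whose groups did not overlap, 3 with TKI258 above and 2 below. Over all genes 40.2% had groups without overlap, 21.4% with TKI258 above and 18.8% below. Within the TKI258 group, replicate 2 gave the lowest value in 8 of the 10 genes, the exceptions being Bmf and Pmaip1, and it was lowest in 34.3% of all genes. Without that array the same 5 genes passed. When a change had to exceed 1.2-fold (limma's treat, adjusted p below 0.05), Bmf alone of the 10 passed, against 9.63% of all genes, so the changes of Bid, Bcl2l11, Bcl2l1 and Bok are not shown to be larger than that.

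**Figure D2:**
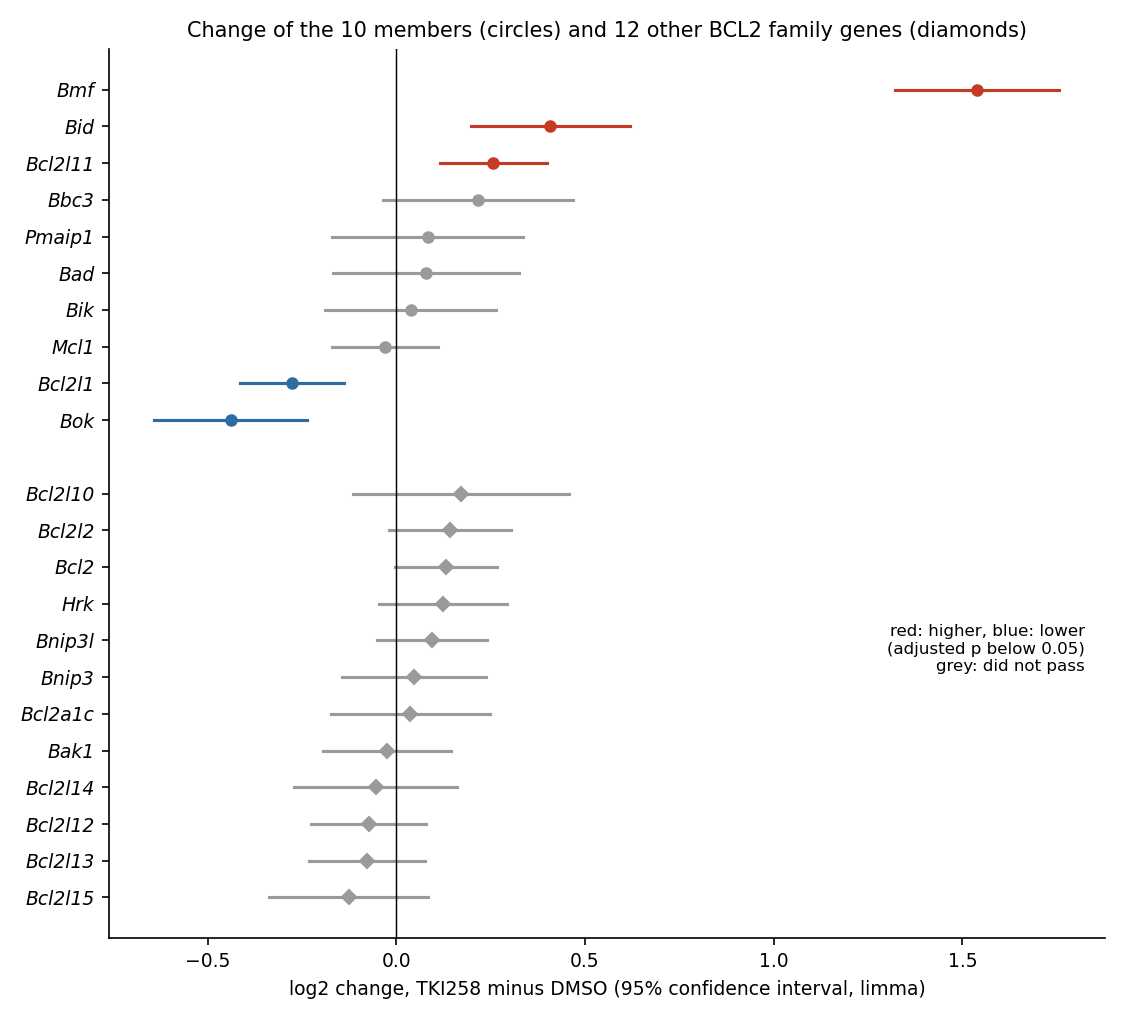
Log2 change (horizontal axis, TKI258 minus DMSO) with limma's 95% confidence interval for the 10 genes (circles) and for 12 other BCL2 family genes (diamonds), red for higher, blue for lower and grey for those that did not pass. Bmf stands at 1.54, apart from all others, and all 12 diamonds lie between -0.13 and 0.17.

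The rest of the family was read from a list of 16 genes, of which 12 had a probe set with 1 symbol. In limma 0 of the 12 passed, and 0 had an unadjusted p below 0.05, with a median log2 change of 0.04 and a range from -0.13 to 0.17. The effector gene Bak1 had a log2 change of -0.02 (limma adjusted p = 0.867). The founding survival gene Bcl2 read a mean of 8.01 ± 0.02 (SD, n = 3) with DMSO and 8.14 ± 0.03 (SD, n = 3) with TKI258, a log2 change of 0.13 (limma adjusted p = 0.147), and Bcl2l2, which encodes the survival protein BCL-W, had 0.14 (limma adjusted p = 0.193). In limma's fit without moderation of the variance, where 21.2% of all genes passed, Bcl2 did so (adjusted p = 0.0207) as the only one of the 12.

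Downstream of the family, the release of cytochrome c from mitochondria lets APAF1 assemble caspase-9 into the apoptosome. Of 20 measured genes of this pathway, from a list of 22, 5 fell, 2 rose and 13 did not pass, a share of 35% against 27% of all genes, with a median log2 change of -0.08. Cycs, the cytochrome c gene, fell most, from 10.53 ± 0.02 (SD, n = 3) to 9.59 ± 0.16 (SD, n = 3), a log2 change of -0.94 (SE 0.08, limma adjusted p = 5.25e-05). These values are from its brightest probe set. Another bright Cycs probe set had a log2 change of -0.945. A dim Cycs probe set, with means of 4.93 (DMSO) and 4.70 (TKI258), had -0.233, and its groups overlapped. Htra2, whose product is released with cytochrome c and binds IAP proteins, fell by 0.58 on the log2 scale (limma adjusted p = 0.00229). The apoptosome gene Apaf1 (-0.27, adjusted p = 0.0304), the initiator caspase gene Casp2 (-0.22, adjusted p = 0.028) and Vdac2 (-0.20, adjusted p = 0.0499), an outer membrane channel that binds BAK, also fell in limma. The call of Vdac2 was lost in 12 of 16 alternatives. Casp9 rose by 0.31 (limma adjusted p = 0.0116) and the mitochondrial fission gene Fis1 by 0.27 (limma adjusted p = 0.0236). Diablo, which encodes the IAP antagonist SMAC, Aifm1 and Endog had log2 changes of -0.24, -0.09 and -0.16 and did not pass in limma (adjusted p = 0.165, 0.486 and 0.211).

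Within that pathway the calls of Cycs and Htra2 stood in each fit with 1 array left out, while the smaller ones depended on single arrays. With DMSO replicate 1, DMSO replicate 2 or TKI258 replicate 2 left out the 5 falls became 2, and with DMSO replicate 3 or TKI258 replicate 1 left out they became 3, while 6 fell with TKI258 replicate 3 left out. The 2 rises became 0 without DMSO replicate 2 and 1 without DMSO replicate 3 or TKI258 replicate 3. Apaf1 lost its call without any 1 of the arrays except TKI258 replicate 1 (limma adjusted p from 0.0522 to 0.103). Casp2 lost its call without DMSO replicate 1 or 2 or TKI258 replicate 1 or 2 (limma adjusted p from 0.0584 to 0.101). Fis1 lost its call without DMSO replicate 2 or 3 or TKI258 replicate 3 (limma adjusted p from 0.0557 to 0.0967), and Casp9 without DMSO replicate 2 (limma adjusted p = 0.0525). Diablo passed without TKI258 replicate 3, at a log2 change of -0.34 (limma adjusted p = 0.0418).

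Some inhibitor of apoptosis (IAP) proteins, though not all, act one step later, on caspases or on death receptor complexes. Of 9 measured IAP genes 3 rose and 1 fell, a share of 44.4% against 27% of all genes, with a median log2 change of 0.13. Birc3 and Birc2, which encode the cellular IAPs, rose from 6.01 ± 0.14 to 6.63 ± 0.15 and from 6.50 ± 0.15 to 7.29 ± 0.33 (mean log2 signal ± SD, n = 3). Their limma adjusted p-values were 0.00117 and 0.00343. In limma's fit without moderation of the variance Birc2 lost its call (adjusted p = 0.0728). Naip6 was dim and rose by 0.43 (limma adjusted p = 0.0187), a call lost without DMSO replicate 1 or 3 or TKI258 replicate 2 or 3 (limma adjusted p from 0.0618 to 0.0647), and it has close relatives in the genome whose RNA its probes may read. Birc5, or survivin, fell from 8.63 ± 0.11 (SD, n = 3) to 8.09 ± 0.06 (SD, n = 3). Xiap, the direct caspase inhibitor, had a log2 change of -0.12, Naip2 of 0.13 and Naip5 of 0.20, and these did not pass in limma (adjusted p = 0.324, 0.31 and 0.198).

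The last list held 36 genes that regulate the transcription, sequestration, phosphorylation or turnover of family members, and 30 were measured. Of these 9 rose, 6 fell and 15 did not pass, a share of 50% against 27% of all genes, with a median log2 change of 0.08. Foxo3 and Foxo1, whose products are transcription factors that AKT keeps out of the nucleus and that can induce Bcl2l11 and Bbc3, rose by 0.86 (SE 0.08, limma adjusted p = 7.57e-05) and 0.34 (limma adjusted p = 0.00544). Foxo4, named after its value was seen, rose by 0.31 (limma adjusted p = 0.00874). Stat3, a transcription factor linked to survival genes, rose by 0.84 (limma adjusted p = 2.16e-05).

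Dynll2, the dynein light chain that tethers BMF, rose by 0.34 (SE 0.07, limma adjusted p = 0.00431), from 8.45 ± 0.05 to 8.79 ± 0.07 (mean log2 signal ± SD, n = 3). Dynll1, the chain that tethers BIM and that was also named after its value was seen, had a log2 change of -0.08 (limma adjusted p = 0.435). Among kinase genes, Pim2, whose product phosphorylates BAD, rose by 0.996 (SE 0.10, limma adjusted p = 8.06e-05). Its relative Pim1, also named after its value was seen, rose by 0.45 (limma adjusted p = 0.00637). The call of Pim1 was lost in the fit without moderation of the variance. Another relative, Pim3, fell (log2 change -0.40, limma adjusted p = 0.00524). Mapk8, which encodes the stress kinase JNK1, fell as well (log2 change -0.32, limma adjusted p = 0.00347).

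Of transcription factors in the same list, Myc fell from 10.78 ± 0.04 (SD, n = 3) to 10.11 ± 0.04 (SD, n = 3), a log2 change of -0.67 (limma adjusted p = 6.13e-05), and Jun had -0.64 (limma adjusted p = 0.000134). Rnf183, a ubiquitin ligase gene linked to BCL-XL turnover, had -0.97 (limma adjusted p = 0.000948). It was dim, going from 5.19 ± 0.10 to 4.22 ± 0.33 (mean log2 signal ± SD, n = 3), below the median signal of 5.01. Trp73, a p53 relative, Ddit3, which encodes CHOP, and Atf4 had log2 changes of -0.01, 0.39 and -0.12 and did not pass in limma (adjusted p = 0.976, 0.057 and 0.422). Without TKI258 replicate 1, Ddit3 passed at a log2 change of 0.54 (limma adjusted p = 0.00423).

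**Figure D3:**
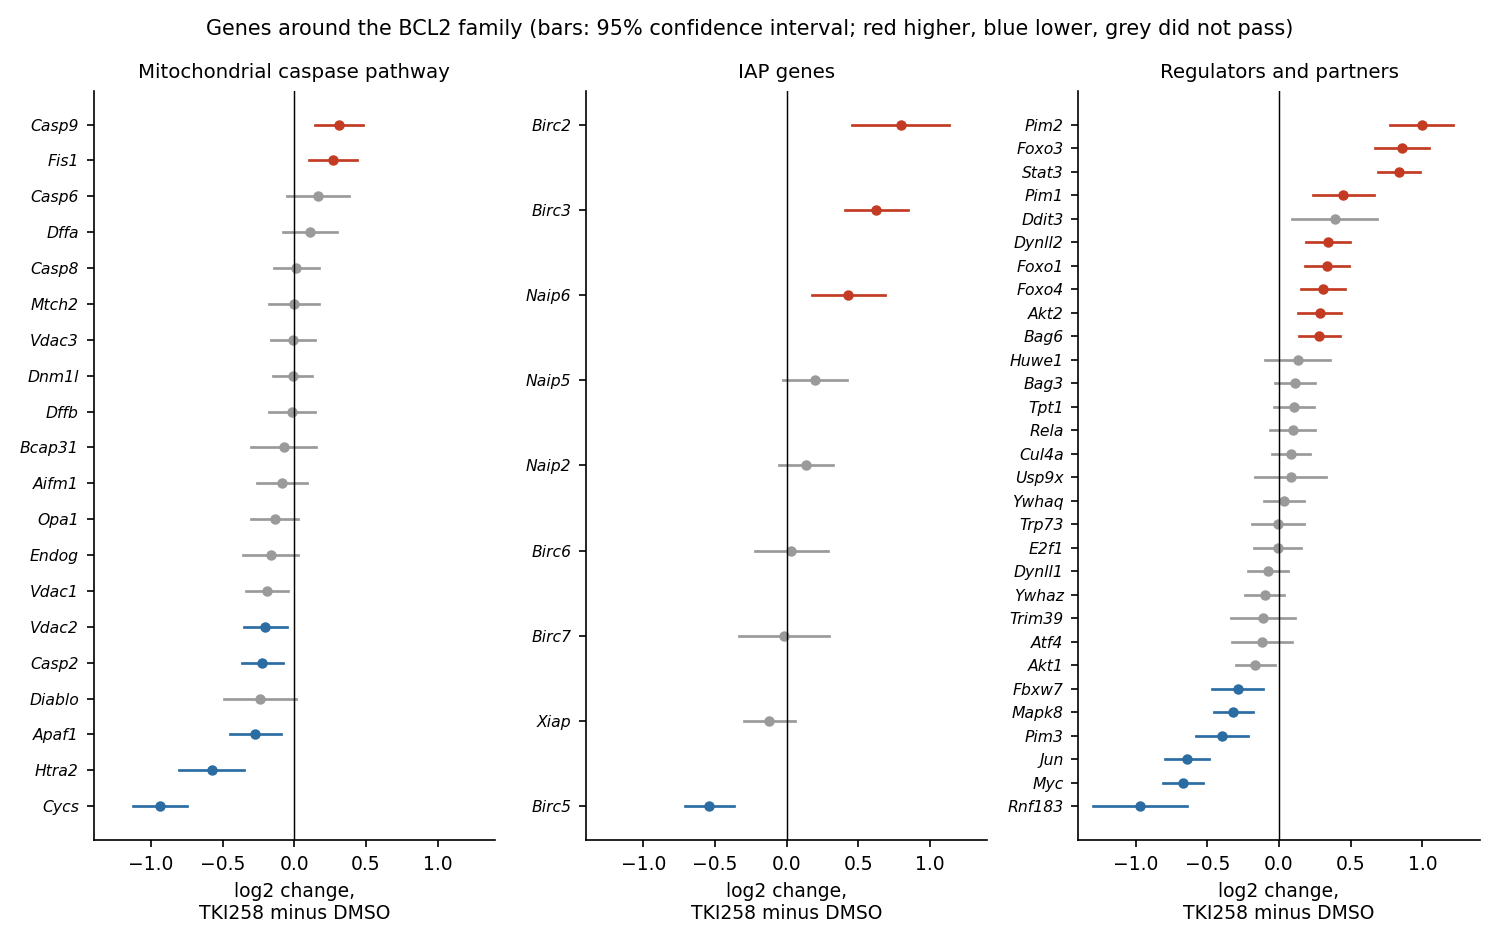
Log2 change (horizontal axis, TKI258 minus DMSO) with limma's 95% confidence interval for 20 mitochondrial caspase pathway genes, 9 IAP genes and 30 regulators and partners, red for higher, blue for lower and grey for those that did not pass. Cycs and Htra2 are lowest in the first panel, Birc2 and Birc5 are the extremes of the second, and Pim2, Foxo3 and Stat3 lead the third.

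The genes with the most similar profile over the 6 arrays were found by the root mean square distance between profiles centred on their DMSO mean, for the 2 members in each direction with the smallest adjusted p. For Bmf they were Olfr920, Vwa5a, Tifa and Lgals9, at distances from 0.08 to 0.10 log2 units and log2 changes from 1.52 to 1.57. Bid was most like Slain1, Dock6, Usp20 and Mapkapk3, at 0.04 to 0.05 log2 units. Bok was most like Cdc25b, Mad1l1, Mtrr and Tmem65, at 0.03 to 0.05, and Bcl2l1 was most like Ssr1, the cyclin D3 gene Ccnd3, Rad23b and Eml1, at 0.01 to 0.02. With 6 arrays in 2 groups, such likeness rests mostly on a change of the same size.

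**Figure D4:**
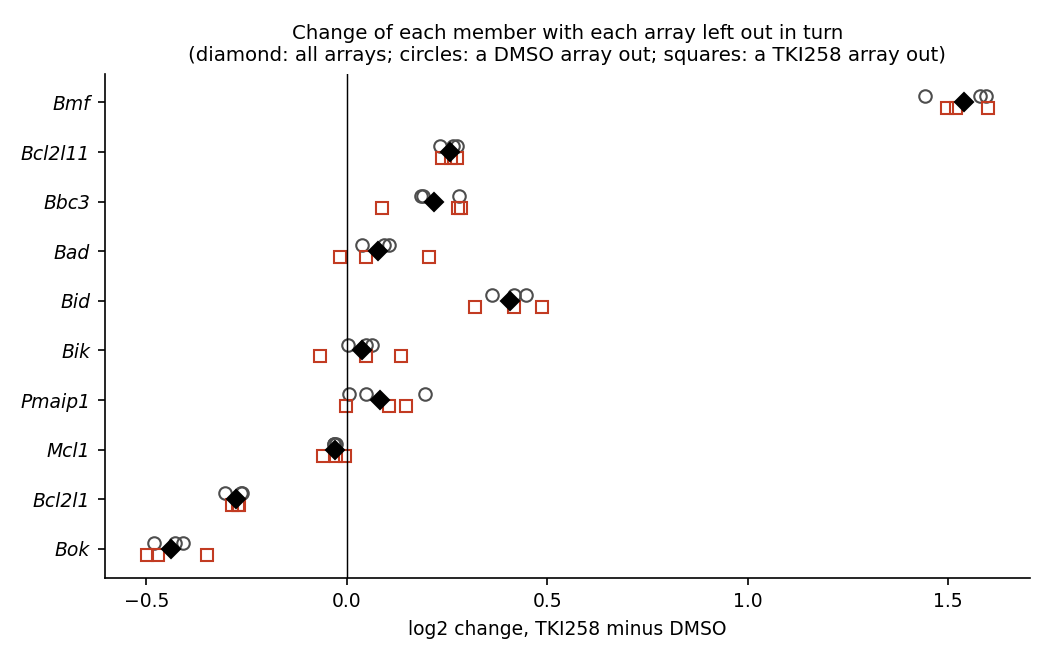
Log2 change (horizontal axis, TKI258 minus DMSO) of each of the 10 genes over all 6 arrays (diamond) and with 1 DMSO array (circles) or 1 TKI258 array (squares) left out. Bmf stays between 1.44 and 1.60, while Bad, Bik and Pmaip1 sit around 0 and change sign with 1 array.

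For the series as a whole, correlations over all genes were 0.997 to 0.998 within and 0.988 to 0.99 between groups, and no array stood apart. The epithelial identity of the cells was checked on 8 markers, of which 7 had a mean above the median of all probe sets. The mean log2 signal over these 8 was 8.29 to 8.42 on the DMSO arrays and 8.67 to 8.74 on the TKI258 arrays, with Krt14, Cdh1 and Cldn4 higher (1.78, 1.09 and 0.89) and Krt18 and Krt7 lower (-0.50 and -0.39). None of 6 lymphocyte markers had a mean above the median of all probe sets, nor had most myeloid or endothelial markers. Of these, 2 of 9 myeloid and 1 of 5 endothelial markers lay above it. The endothelial marker Eng rose by 0.43 (limma adjusted p = 0.000987). The mean log2 signal over 8 fibroblast markers, 4 of them above that median, was 4.86 to 4.99 on the DMSO arrays and 5.38 to 5.46 on the TKI258 arrays, with Dcn and Pdgfra passing. Over the 9 myeloid markers it was 4.23 to 4.27 and 4.32 to 4.46, with Cd68 and Cd14 higher and Fcer1g lower. The part of these shifts in the changes of the BCL2 family genes was not tested.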

How the data were processed

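The deposited table holds 35557 probe sets on 6 arrays, and its values were taken to be log2 signals normalized by the authors, from their range and near-equal quartiles. The tools RMA, affy and limma appear with neither version nor role, per the submitters' processing notes. The scale and genome build are not given in the sources used here. Array medians were 4.97 to 5.04. There are no detection calls, and precision is limited by having 3 arrays per group.

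Of the probe sets 21789 had 1 symbol, 1621 several and 12147 none in the platform annotation. TKI258 was compared with DMSO by lmFit and eBayes (limma 3.58.1, R 4.3.3), two-sided, over all 19938 genes, with treatment as the only term and no filter. The code was tested on simulated data. The sample titles call the arrays of each group biological replicates. They do not say whether the dishes came from separate cultures. The members and lists were chosen with earlier results of these data known. The text names all members, up to 5 called genes per direction and 3 others of each list, and the most similar profiles. It also names Foxo4, Dynll1 and Pim1, chosen after their values were seen. Listed genes without a probe set of 1 symbol were not analysed here. No protein sequences were used.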

Additional observations from a re-analysis of the deposited data

How the results depend on the processing

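With 16 alternatives per gene (15 for the dim Pmaip1), 145 of 159 values for the 10 genes kept their direction and their side of the threshold, 8 lost a call and 6 changed sign. The log2 change was fixed under the replicate block, the limit to brighter genes and averaging over probe sets (1 per member). It was also fixed under the other eBayes settings, no variance moderation, the threshold of 0.01 and treat. That threshold and treat could only remove calls, so members that had not passed were bound to stay the same. The count of 145 therefore includes outcomes fixed in advance. Bmf passed in all 16, with log2 changes from 1.44 to 1.60. The sign changes were all in genes that had not passed: Bad was at -0.016 without TKI258 replicate 3 (leave-one-out range -0.016 to 0.206), Pmaip1 at -0.001 without TKI258 replicate 2 (-0.001 to 0.195), Bik at -0.068 without TKI258 replicate 1 (-0.068 to 0.134), and also at -0.001 after renewed quantile normalization and -0.015 with array weights. Mcl1 was at 0.014 after renewed quantile normalization (-0.059 to -0.004 with 1 array left out). The cause was not tested. Besides the loss of Bcl2l11 without DMSO replicate 3, its call was lost at an adjusted p below 0.01. Without variance moderation Bid and Bok lost theirs (adjusted p = 0.0766 and 0.0557), leaving 1 of the 10 genes lower, while 1 of the other BCL2 family genes and 1 IAP gene were higher, and the caspase pathway had 1 higher and 3 lower. Treat against a fold of 1.2 gave 1057 genes higher and 864 lower in all, 1 member higher and 0 lower, 0 and 1 in the caspase pathway, and 3 and 3 regulators. At an adjusted p below 0.01 the caspase pathway had 0 higher and 2 lower, and with arrays centred on their medians 1 higher. Leaving out 1 array gave 0 to 2 higher and 2 to 6 lower in that pathway. Centring left 2497 genes higher and 2622 lower, against 2866 and 2519. With the replicate number as a block 2877 were higher and 2487 lower, and the same 5 members passed. Same-numbered arrays had deviation correlations of 0.02, 0.05 and 0.15, and 3 of 6 arrays correlated best with their own number. With so few arrays this cannot decide whether the numbers are pairs. They were not taken as pairs because the series design text gives no pairing. No member had a further probe set to test singly. The wider promoter window, with 50 bases after the start, left the FOXO counts at 2 of 16.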
